A study of Homo sapiens with 60 samples.

Results

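The genes described here are 39 human genes of DNA break repair and damage checkpoint signalling, chosen by name from the 58395 gene rows of the count table, and 38 of them passed the filter on low counts that left 18985 genes for testing. They fall into 7 roles: poly(ADP-ribose) enzymes, single-strand break repair, nucleases and proteases that can act where TDP1 is lacking, end joining, break site chromatin, checkpoint kinases with their partners, and replication checkpoint mediators. RNA-seq counts came from HEK293A, a human embryonic kidney cell line, in 3 lines named C6, F7 and G6, each a separate clone in which CRISPR/Cas9 had been aimed at TDP1. Each clone received topotecan (100 nM) with OL9-119 (5 µM), topotecan alone (100 nM, with 0.1% DMSO), OL9-119 alone (5 µM, in 0.1% DMSO), 0.1% DMSO, or nothing, for 5 to 5.5 h. The labels name no DMSO for the combination, so comparisons with it may not be matched for vehicle. Every one of the 15 groups had 4 biological replicates, so a treatment had 12 libraries. All groups carry the TDP1 targeting, and libraries of unedited cells were not analysed here, so no value below measures the knockout itself. The list of genes was chosen with earlier results of these data known. Its shares of passing genes, set beside those of all genes below, are therefore descriptions and not separate support.

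Topoisomerase 1 relaxes DNA by nicking a strand and resealing it, and topotecan holds the enzyme on the nick. TDP1 removes the trapped enzyme from the DNA end, and OL9-119 was developed as an inhibitor of TDP1. The remaining nick is sensed by PARP1 and PARP2 and closed by proteins that assemble on XRCC1. The nuclease ERCC1-ERCC4 and the protease SPRTN can act on the same lesion by other routes. A replication fork or an RNA polymerase that meets the lesion can turn it into a break of both strands, which end joining factors rejoin and which ATM and ATR report to the checkpoint kinases. In bulk RNA, fewer cells of a kind and less RNA per cell cannot be told apart, which holds for every level below.

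The libraries held 4.62 to 20.9 M counts, with a median of 11.4 M, so 1 CPM (a count per M counts, scaled with TMM factors) stood for 4.53 to 21.4 counts. TDP1 itself was counted in all treatments, with a median of 26.5 CPM in the combination, 23.5 CPM with topotecan, 30.8 CPM with OL9-119, 31.9 CPM with DMSO and 30.8 CPM without treatment. A whole-gene count can remain after an exon is disrupted, so it does not check the knockout. Of 9 genes typical of HEK293 cells, 7 had a median over 1 CPM and their sum ran from 791 to 1370 CPM, with PAX8 (median 0.66 CPM) and INA (0.476 CPM) near 0. Markers of hepatocytes summed to 0 to 1.94 CPM, those of blood cells to 1.02 to 7.54 CPM with PTPRC at 0 in 53 of 60 libraries, and those of fibroblasts to 15.4 to 45.3 CPM, mostly COL1A1 (median 27.3 CPM). At a common depth of 4.5 M counts, 14 libraries (10 of C6 and 4 of G6, from every treatment) showed fewer detected genes, 17454 to 19345 against 20160 to 23640 in the others.

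With DMSO the levels per kb of exon spread widely. The length counts every annotated exon base of a gene over all its transcripts (24.0 kb for ATM). It can exceed the length of any single transcript, so the order depends on it. XRCC6, which encodes the Ku70 subunit of the DNA end clamp Ku, was highest at 206 ± 42.3 CPM per kb (SD, n = 12), and its partner XRCC5 (Ku80) followed further down at 96.5 ± 21.0 CPM per kb. PARP1 lay between them at 117 ± 9.63 CPM per kb. XRCC6 ran from 149 to 278 CPM per kb and did not overlap the next gene in the order. H2AX, the histone variant phosphorylated at breaks, had 69.1 ± 17.9 CPM per kb. PRKDC, the catalytic subunit of DNA-PK that Ku recruits, had 42.6 ± 7.91 CPM per kb. At the low end, ATM had 1.90 ± 0.31 CPM per kb, DCLRE1C (the Artemis nuclease) 1.67 ± 0.25 CPM per kb and APLF, a histone-binding cofactor of end joining, 0.79 ± 0.28 CPM per kb. Except for XRCC6, DCLRE1C, APLF and 1 other gene, each gene's range over the 12 DMSO libraries overlapped that of the next lower gene. NHEJ1, which encodes the end joining factor XLF, held 0 to 6 counts per library and was not tested. Of its exon bases 65.4% are shared with another annotated gene on the same strand, so these counts may not measure NHEJ1. The shared part was 27.9% for ATRIP, 22.8% for APLF and 21.0% for TIPIN, whose values carry the same uncertainty. Exon bases that overlap genes on the opposite strand made up 30.5% for LIG3, 28.7% for TP53BP1, 28.6% for ERCC1 and 25.7% for ERCC4. For XRCC1, ATR and SPRTN they made up 17.5%, 16.4% and 12.7%. The strand setting of the counting is not given, so these values may include the other genes.

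Promoters were available from RefSeq (GRCh38.p14) for 35 of the 39 genes. Those of 4 genes that the results turn on are given 5′ to 3′ on the gene's own strand, from 250 bases before the annotated start to 30 bases after it. CLSPN and APEX2 rose with topotecan, and XRCC4 and MDC1 fell. The positions are chr1:35769949-35770228 (minus strand) for CLSPN, chrX:55000113-55000392 (plus strand) for APEX2, chr5:83077297-83077576 (plus strand) for XRCC4 and chr6:30717252-30717531 (minus strand) for MDC1. Capitals mark matches on either strand to the E2F letters TTTCCCGC, TTTGGCGC, TTTCGCGC or TTTGCCGC, to the NF-Y letters CCAAT or to the cell cycle homology letters TTTGAA.
CLSPN: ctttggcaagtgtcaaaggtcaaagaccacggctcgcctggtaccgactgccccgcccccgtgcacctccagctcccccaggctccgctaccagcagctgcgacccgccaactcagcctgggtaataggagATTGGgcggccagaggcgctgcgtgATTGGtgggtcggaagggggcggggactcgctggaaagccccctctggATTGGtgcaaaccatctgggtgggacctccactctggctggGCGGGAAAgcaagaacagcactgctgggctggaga
APEX2: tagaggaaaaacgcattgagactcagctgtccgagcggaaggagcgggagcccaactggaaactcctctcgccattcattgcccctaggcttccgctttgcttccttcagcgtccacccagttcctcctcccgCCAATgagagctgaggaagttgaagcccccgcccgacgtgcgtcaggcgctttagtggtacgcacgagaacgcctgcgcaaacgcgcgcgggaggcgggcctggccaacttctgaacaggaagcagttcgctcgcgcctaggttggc
XRCC4: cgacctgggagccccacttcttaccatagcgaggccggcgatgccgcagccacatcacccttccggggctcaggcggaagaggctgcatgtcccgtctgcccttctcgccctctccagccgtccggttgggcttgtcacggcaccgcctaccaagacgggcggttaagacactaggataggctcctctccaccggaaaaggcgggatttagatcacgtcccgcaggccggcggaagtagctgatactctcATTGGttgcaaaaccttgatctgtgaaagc
MDC1: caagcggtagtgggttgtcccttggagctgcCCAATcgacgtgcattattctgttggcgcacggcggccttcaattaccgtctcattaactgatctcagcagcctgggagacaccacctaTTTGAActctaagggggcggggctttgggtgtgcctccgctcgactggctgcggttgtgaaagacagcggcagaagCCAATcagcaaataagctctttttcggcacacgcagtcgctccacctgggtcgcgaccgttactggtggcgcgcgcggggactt
The CLSPN promoter held CCAAT at 3 places on the reverse strand and E2F letters at position -5, counted from the first transcribed base. APEX2 held CCAAT alone, XRCC4 held it at the annotated start, and MDC1 held it at 2 places beside TTTGAA. Over windows of 300 bases, 20 of the 35 promoters (57.1%) held CCAAT, against 35.7% of 27305 promoters. E2F letters were in 3 (8.6%; CLSPN, TOPBP1 and XRCC6), against 3.3%, and TTTGAA in 7, against 15.4% of all. The motifs of CREB (TGACGTCA, in PARP2) and AP-1 (TGACTCA, in DCLRE1C) were each in 1 promoter (2.9%, against 2.0% and 4.9% of all). ATF4 letters (TGATGCAA or TGATGAAA, 2.0% of all) and the NF-kB motif (0.5% of all) were in none of these windows. No motif overlapped another in the printed sequences. All 4 printed promoters held CCAAT, but not every gene that passed did. With topotecan it was in 2 of 4 promoters of genes that rose and 5 of 6 of those that fell. For the combination these were 7 of 12 and 4 of 7. The 27305 promoters were not limited to expressed genes.

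**Figure D1:**
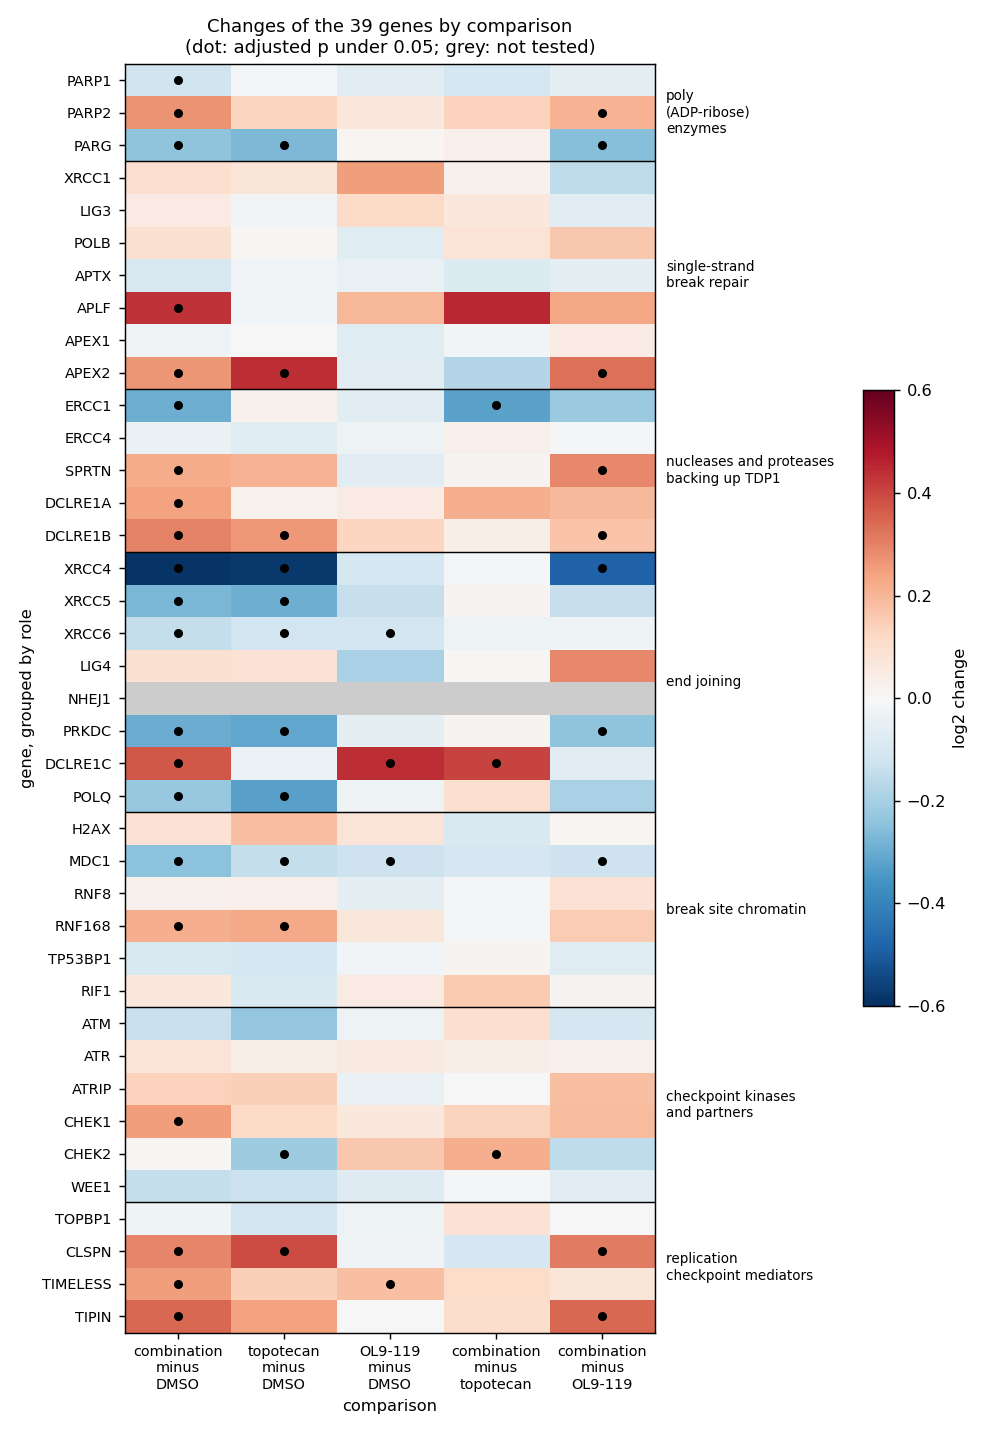
Log2 changes of the 39 genes (rows, grouped by role) in 5 comparisons (columns). A dot marks an adjusted p under 0.05 and grey marks the untested NHEJ1. In the end joining rows, 5 of 7 tested genes passed lower with topotecan and 5 with the combination. Beside these stand 9.33% and 11.7% of all tested genes passing lower. DCLRE1C, another end joining gene, passed higher in the combination. OL9-119 alone has 4 dots (10.5% of 38 genes, beside 9.42% of all tested genes).

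Topotecan against DMSO asks what the trapping drug does to these transcripts where TDP1 was targeted. End joining genes fell most often: 5 of 7 tested passed lower, none higher, with a median log2 change of -0.29, against a median of 0.02 over all genes tested. Most of those that fell are long genes. XRCC4, PRKDC and POLQ each span over 100 kb, where protein-coding genes had a median of -0.21. XRCC5 spans 98.8 kb and XRCC6 42.9 kb. LIG4 (10.9 kb, log2 0.08) and DCLRE1C (57.1 kb, -0.03) did not pass. In the other roles, APEX2, CLSPN, DCLRE1B and RNF168 rose, and PARG, MDC1 and CHEK2 fell. In all, 12 of 38 genes (31.6%) passed an adjusted p of 0.05, 4 higher and 8 lower. Over all tested genes the share was 15.3%, with 5.98% higher and 9.33% lower. Because the list was chosen with earlier results known, this contrast is a description. When only well expressed genes were counted (log2 CPM averaging 4 or more), 33.3% of 36 of these genes passed, against 25.2% of 9332. The largest of these changes was 1.49-fold.

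APEX2 (ENSG00000169188, chromosome X, 55000357 to 55009057), an apurinic endonuclease that also trims blocked DNA ends, had 44.7 to 58.3 CPM (median 54.3) with topotecan and 28.3 to 44.7 CPM (median 39.9) with DMSO. All 12 topotecan libraries lay above the highest DMSO library, the closest pair differing only beyond the printed digits. In clone C6 the mean was 51.0 ± 5.85 CPM with topotecan and 35.6 ± 5.80 CPM with DMSO (SD, n = 4 each). It was 51.8 ± 5.69 and 39.8 ± 1.25 CPM in F7, and 55.5 ± 1.61 and 40.9 ± 4.12 CPM in G6, each with topotecan and then DMSO. The log2 change was 0.44 ± 0.06 (SE; adjusted p = 2.68e-07, edgeR), or 1.36-fold.

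CLSPN (ENSG00000092853, chromosome 1, 35720218 to 35769967) encodes claspin, the mediator that lets ATR activate CHEK1 at stalled forks. It had 101.2 to 175 CPM (median 122.5) with topotecan and 79.3 to 115 CPM (median 95.9) with DMSO, and 9 of 12 topotecan libraries lay above every DMSO library. Within each clone the 4 topotecan libraries lay above the 4 DMSO libraries. The clone means were 153 ± 20.2 CPM with topotecan and 112 ± 3.85 CPM with DMSO in C6, 110 ± 6.83 and 86.4 ± 5.64 CPM in F7, and 123.5 ± 4.99 and 95.7 ± 13.2 CPM in G6, in the same order. The log2 change was 0.39 ± 0.07 (adjusted p = 1.68e-05, edgeR). DCLRE1B, the Apollo nuclease of telomere ends and crosslinks, rose by 0.26 ± 0.06 (adjusted p = 0.000438, edgeR). RNF168, the ubiquitin ligase that marks chromatin for 53BP1, rose by 0.23 ± 0.06 (adjusted p = 0.00219, edgeR).

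PRKDC (ENSG00000253729, chromosome 8, 47773108 to 47960183) had 376 to 760 CPM (median 507) with topotecan and 512 to 881 CPM (median 614) with DMSO. The pooled ranges overlapped, with C6 above the other clones in both treatments, and 7 topotecan libraries lay below every DMSO library. The means were 682 ± 59.8 CPM with topotecan and 808 ± 53.1 CPM with DMSO in C6, 491 ± 43.9 and 570 ± 19.3 CPM in F7, and 424 ± 56.5 and 592 ± 73.8 CPM in G6. Its log2 change was -0.31 ± 0.05 (adjusted p = 8.38e-06, edgeR). XRCC4 (ENSG00000152422, chromosome 5, 83077498 to 83353787), the scaffold that holds DNA ligase 4, had 10.8 to 18.7 CPM (median 13.2) with topotecan and 16.5 to 25.5 CPM (median 20.9) with DMSO. Of the topotecan libraries, 8 lay below every DMSO library. The clone means were 12.9 ± 3.13 CPM with topotecan and 20.4 ± 1.17 CPM with DMSO in C6, 15.8 ± 3.03 and 21.4 ± 2.73 CPM in F7, and 13.7 ± 2.66 and 21.1 ± 3.98 CPM in G6. The log2 change of -0.58 ± 0.12 (adjusted p = 0.000149, edgeR) was the largest among the 38 genes. Both Ku genes fell, with changes of -0.29 ± 0.07 for XRCC5 (adjusted p = 0.000887, edgeR) and -0.11 ± 0.03 for XRCC6 (adjusted p = 0.0115, edgeR). POLQ, the polymerase of microhomology-mediated joining, fell as well, its log2 change being -0.32 ± 0.08 (adjusted p = 0.00194, edgeR).

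PARG (ENSG00000227345, chromosome 10, 49818279 to 49970203), which removes poly(ADP-ribose), had 62.4 to 105 CPM (median 83.1) with topotecan and 84.0 to 133 CPM (median 96.997) with DMSO. The ranges overlapped, with 6 topotecan libraries below every DMSO library. Its means were 89.1 ± 11.1 CPM with topotecan and 110 ± 14.8 CPM with DMSO in C6, 85.1 ± 2.91 and 92.5 ± 5.62 CPM in F7, and 70.8 ± 6.79 and 92.5 ± 6.15 CPM in G6. Its log2 change was -0.27 ± 0.06 (adjusted p = 0.000192, edgeR). MDC1, the scaffold that reads phosphorylated H2AX, fell with a log2 change of -0.14 ± 0.04 (adjusted p = 0.00673, edgeR). CHEK2, the effector kinase of ATM, fell with a change of -0.21 ± 0.06 (adjusted p = 0.0134, edgeR).

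**Figure D2:**
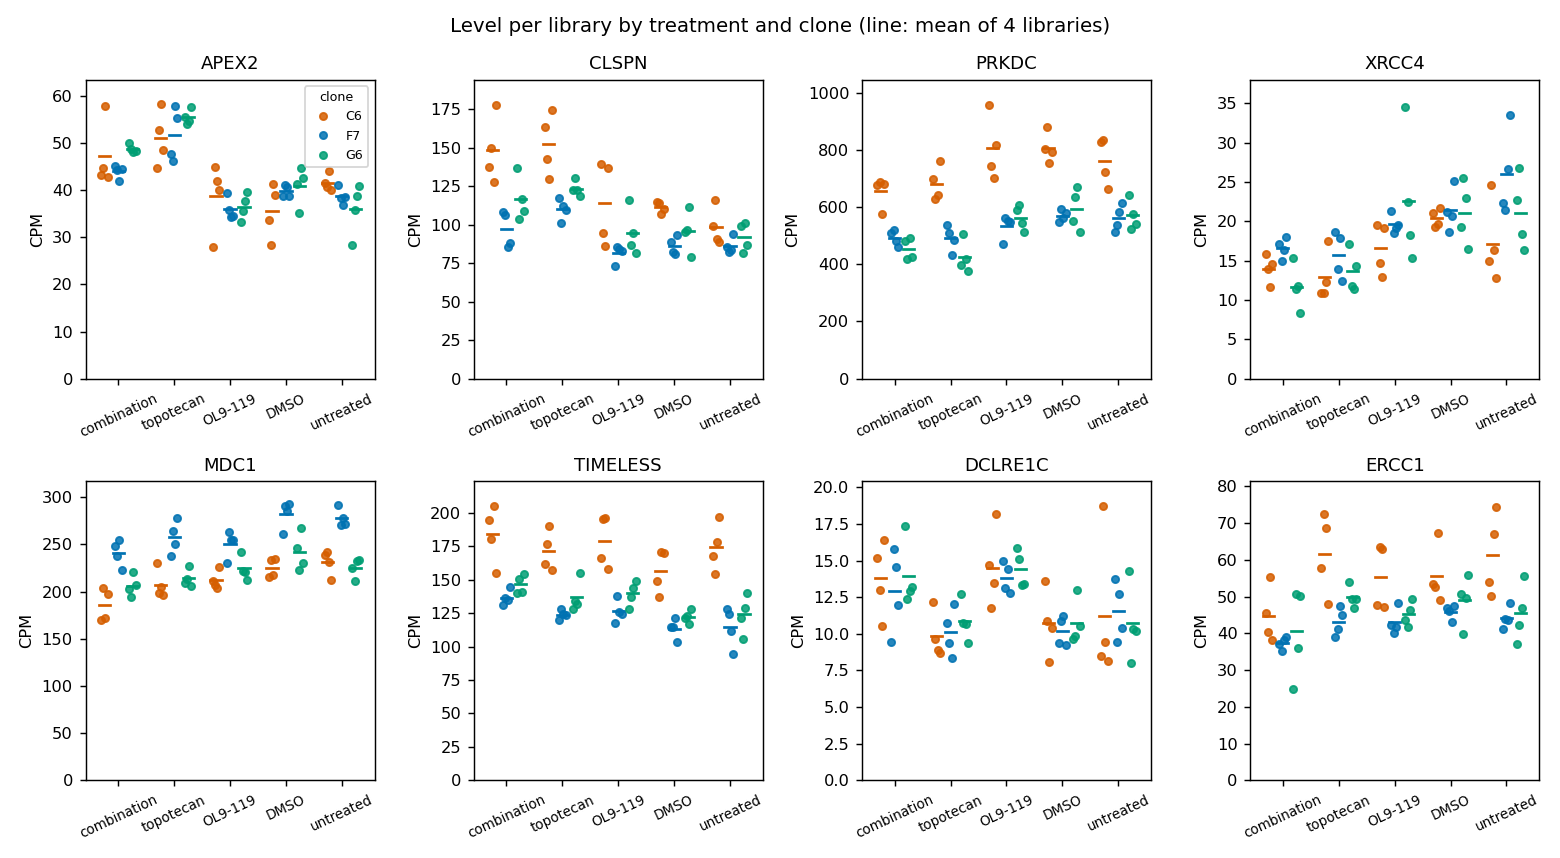
CPM of 8 genes (panels) in each library by treatment (x axis) and clone (colour), with the mean of 4 libraries as a line. APEX2 lies at 44.7 to 58.3 CPM with topotecan, above its DMSO libraries, and DCLRE1C is higher in the groups that received OL9-119.

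The other 26 genes did not pass. Of the 7 genes grouped under single-strand break repair, APEX2 rose and the other 6 did not pass. XRCC1, the scaffold, had a log2 change of 0.07 (95% interval -0.12 to 0.27) and LIG3, its ligase, -0.02 (-0.13 to 0.10). POLB, the gap-filling polymerase, had 0.01 (-0.14 to 0.16) and APTX, which clears aborted ligations, -0.02 (-0.16 to 0.12). APEX1, the main apurinic endonuclease, had -0.0029 (-0.10 to 0.10) and APLF -0.02. PARP1 had -0.01 (-0.08 to 0.06). ERCC1 had 0.03 (-0.14 to 0.19) and its partner ERCC4 -0.07 (-0.23 to 0.09). ATM had -0.23 (-0.41 to -0.05; adjusted p = 0.0805, edgeR) and ATR 0.04 (-0.12 to 0.20). TIPIN, the fork protection partner of TIMELESS, had 0.24 (0.07 to 0.41) and an adjusted p of 0.0502 in edgeR, just short of passing, and SPRTN had 0.21 (0.05 to 0.36; adjusted p = 0.0693, edgeR).

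All 12 topotecan calls had the same sign in the 3 clones, and also within each of the 3 prefixes of the library names (L01, L02 and L03, whose meaning the labels do not give), where 4, 3 and 3 genes passed. The genes were picked on the average over these same libraries, so shared signs are partly fixed by that choice and are not separate support. The same holds for the signs given for the other comparisons below. PARG, APEX2, DCLRE1B, XRCC4, XRCC5, PRKDC, RNF168 and CLSPN passed under every other alternative tried, while XRCC6 was lost without the C6 DMSO replicate 4 (adjusted p = 0.0664, edgeR) and CHEK2 without the C6 DMSO replicate 2 (0.0734), and XRCC6, MDC1, CHEK2 and POLQ were each lost without at least 1 clone. With library totals in place of TMM factors 8 genes were higher and 6 lower, and XRCC6 and MDC1 did not pass.

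Genes of over 100 kb fell or did not pass. Of the 8 tested genes that span over 100 kb, none rose and 4 fell with topotecan (POLQ, PARG, PRKDC and XRCC4), with a median log2 change of -0.25. Among 2983 protein-coding genes of that span, 21 rose and 1238 fell, with a median of -0.21. Of 10 genes under 20 kb, 2 rose (APEX2 and DCLRE1B) and 1 fell (MDC1), with a median of 0.11, the same as over 5259 protein-coding genes of that span. Across genes, Spearman's rho between span and the topotecan change was -0.61 over the 38 genes and -0.49 over 14685 protein-coding genes. These are descriptions across genes measured in the same libraries, and genes are not replicates. CLSPN, at 49.8 kb, rose by 0.39, and the median over protein-coding genes of 20 to 50 kb was 0.05. More protein-coding genes of that span rose than fell. For the combination rho was -0.39 over the 38 genes and -0.28 over protein-coding genes, and for OL9-119 it was 0.08 and 0.02. The part of gene length in these changes was not tested.

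**Figure D3:**
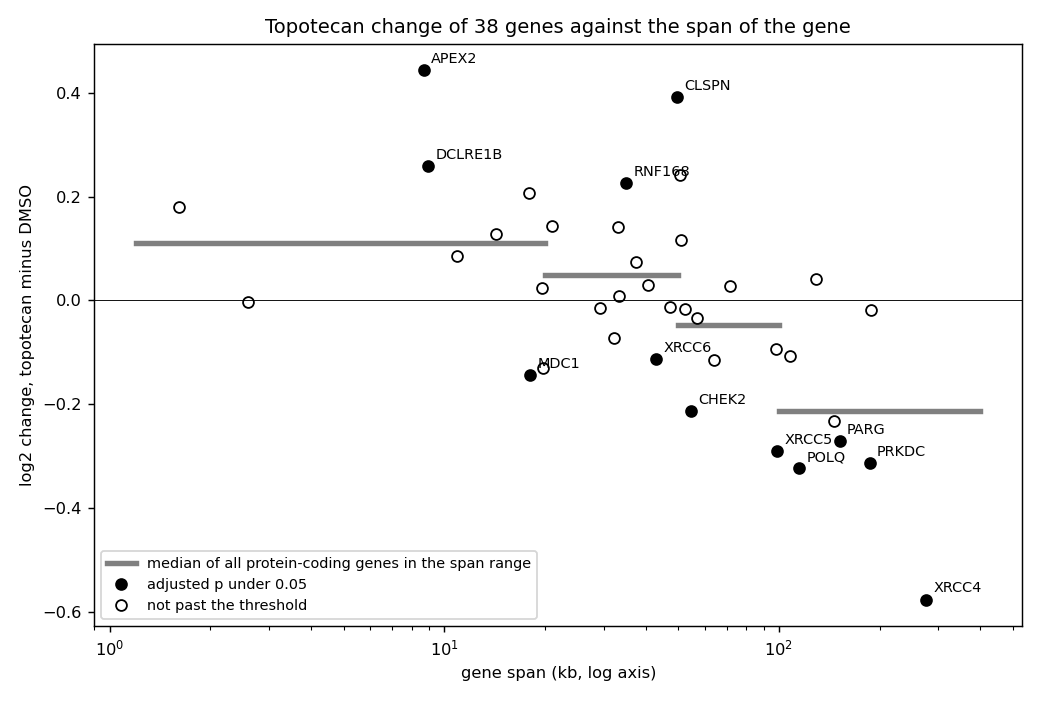
Log2 change with topotecan minus DMSO (y axis) against the span of each gene (x axis, kb, log axis) for the 38 tested genes. Filled points have an adjusted p under 0.05 and are named, and grey lines give the median of all protein-coding genes in 4 ranges of span; XRCC4, the longest of the 38, lies lowest at -0.58.

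OL9-119 against DMSO asks what the TDP1 inhibitor does in cells whose TDP1 gene was targeted. DCLRE1C and TIMELESS rose, and XRCC6 and MDC1 fell. These 4 of 38 genes (10.5%) stand beside 9.42% of all tested genes, and beside 4.45% higher and 4.97% lower. Counting well expressed genes alone, 8.33% of 36 passed, below the 15.9% of 9332. Median log2 changes were -0.03 over the 38 genes and 0.01 over all genes. The 12 DMSO libraries are the same as in the topotecan comparison, so the results of the treatments are not independent.

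DCLRE1C (ENSG00000152457, chromosome 10, 14897359 to 14954432) had 11.8 to 18.2 CPM (median 13.95) with OL9-119 and 8.05 to 13.6 CPM (median 10.5) with DMSO, and 6 OL9-119 libraries lay above every DMSO library. The means were 14.5 ± 2.71 CPM with OL9-119 and 10.7 ± 2.28 CPM with DMSO in C6, 13.8 ± 1.02 and 10.2 ± 1.03 CPM in F7, and 14.4 ± 1.25 and 10.7 ± 1.53 CPM in G6. The log2 change was 0.44 ± 0.11 (adjusted p = 0.0047, edgeR), and within the clones it was 0.45, 0.44 and 0.43 in C6, F7 and G6. TIMELESS (ENSG00000111602, chromosome 12, 56416373 to 56449403), the fork protection protein, had 117 to 196 CPM (median 141) with OL9-119 and 103.1 to 171 CPM (median 121.9) with DMSO. These ranges overlapped in all but 2 OL9-119 libraries. TIMELESS averaged 179 ± 19.8 CPM with OL9-119 and 157 ± 16.7 CPM with DMSO in C6, 126.4 ± 8.60 and 113 ± 7.54 CPM in F7, and 140 ± 9.13 and 122.1 ± 4.84 CPM in G6. The change in log2 was 0.18 ± 0.05 (adjusted p = 0.0198, edgeR).

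XRCC6 (ENSG00000196419, chromosome 22, 41621119 to 41664048) had 504 to 803 CPM (median 581) with OL9-119 and 489 to 915 CPM (median 676) with DMSO. Every OL9-119 library lay within the DMSO range, with C6 highest and F7 lowest in both treatments. The means were 746 ± 40.5 CPM with OL9-119 and 837 ± 58.1 CPM with DMSO in C6, 515 ± 18.6 and 527 ± 27.1 CPM in F7, and 598 ± 41.05 and 663 ± 47.3 CPM in G6. The log2 change of XRCC6 was -0.12 ± 0.03 (adjusted p = 0.0156, edgeR). MDC1 (ENSG00000137337, chromosome 6, 30699807 to 30717889) had 204 to 263 CPM (median 224) with OL9-119 and 216 to 293 CPM (median 240) with DMSO, and 4 OL9-119 libraries lay below every DMSO library. MDC1 averaged 212 ± 9.60 CPM with OL9-119 and 225 ± 10.0 CPM with DMSO in C6, 250 ± 14.2 and 282 ± 14.8 CPM in F7, and 225 ± 12.6 and 242 ± 19.8 CPM in G6. The change of MDC1 was -0.12 ± 0.04 (adjusted p = 0.0371, edgeR).

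These 4 calls rested on the pooled design: 0, 0 and 0 genes passed within the prefixes L01, L02 and L03, though all 12 values kept their sign, and none of the 4 passed without clone G6. TIMELESS was lost without the C6 DMSO replicate 2 (adjusted p = 0.0542, edgeR), XRCC6 without the F7 DMSO replicate 3 (0.0515), and MDC1 passed in 35 of 60 fits that left out a library (adjusted p up to 0.117). With library totals 6 genes were higher and 0 lower, and against untreated libraries MDC1 (0.144) and TIMELESS (0.197) did not pass.

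The combination against DMSO asks how topotecan and OL9-119 together change these genes. Over all 60 libraries it gave the most calls, 21 of 38 genes (55.3%), 12 higher and 9 lower. Of all tested genes 21.2% passed, 9.52% higher and 11.7% lower. Counting well expressed genes alone, the shares were 52.8% of 36 and 33.9% of 9332. This lead over topotecan was absent without the 14 libraries of low gene detection. There 16 of these genes passed for the combination, 7 higher and 9 lower, and 16 for topotecan alone, 6 higher and 10 lower. Of all 20654 genes tested there, 4313 and 3799 passed. All 3 poly(ADP-ribose) enzyme genes passed, PARP2 higher and PARP1 and PARG lower. Of the 4 replication checkpoint mediators, CLSPN, TIMELESS and TIPIN rose, and TOPBP1, the activator of ATR, had a log2 change of -0.03 (95% interval -0.15 to 0.10). Of 7 tested end joining genes 5 fell and 1 rose.

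MDC1 had the smallest p. It stood at 170 to 254 CPM (median 205) in the combination and at 216 to 293 CPM (median 240) with DMSO, and within each clone all 4 combination libraries lay below the 4 DMSO libraries. Its means were 186 ± 17.2 CPM in the combination and 225 ± 10.0 CPM with DMSO in C6, 241 ± 13.6 and 282 ± 14.8 CPM in F7, and 206 ± 11.2 and 242 ± 19.8 CPM in G6. The log2 change was -0.25 ± 0.04 (adjusted p = 2.04e-06, edgeR). PRKDC had 417 to 688 CPM (median 500) in the combination, against the DMSO range of 512 to 881 CPM, and was also below DMSO without overlap in each clone. The combination means were 655 ± 54.3 CPM in C6, 492 ± 27.6 in F7, and 454 ± 37.9 CPM in G6, and the log2 change was -0.30 ± 0.05 (adjusted p = 1.52e-05, edgeR).

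XRCC4 had 8.32 to 18.0 CPM (median 14.7) in the combination, against 16.5 to 25.5 CPM with DMSO, and 10 combination libraries lay below every DMSO library. The combination means were 13.95 ± 1.76 CPM in C6, 16.6 ± 1.31 in F7, and 11.7 ± 2.89 CPM in G6, and the log2 change was -0.59 ± 0.12 (adjusted p = 9.12e-05, edgeR). DCLRE1B (ENSG00000118655, chromosome 1, 113905141 to 113914086) had 42.1 to 76.3 CPM (median 52.8) in the combination and 37.9 to 60.3 CPM (median 43.3) with DMSO, with overlap in all but 3 combination libraries. It averaged 65.4 ± 7.75 CPM in the combination and 51.7 ± 6.45 CPM with DMSO in C6, 50.5 ± 1.49 and 41.5 ± 1.40 CPM in F7, and 50.6 ± 6.04 and 41.8 ± 3.75 CPM in G6. The log2 change was 0.30 ± 0.06 (adjusted p = 3.54e-05, edgeR). TIMELESS had 131 to 205 CPM (median 147) in the combination, against 103.1 to 171 CPM with DMSO, and lay above DMSO without overlap in 2 of 3 clones. Its combination means were 184 ± 21.9 CPM in C6, 137 ± 5.58 in F7, and 146 ± 7.05 CPM in G6, and the log2 change was 0.25 ± 0.05 (adjusted p = 0.000223, edgeR).

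The other genes that rose were PARP2 (log2 0.27), CLSPN (0.29), APEX2 (0.27), TIPIN (0.34), RNF168 (0.22), CHEK1 (0.25), DCLRE1C (0.37), DCLRE1A (0.24), SPRTN (0.22) and APLF (0.43), with adjusted p of 0.000354 to 0.0366 in edgeR. CHEK1 encodes the effector kinase of ATR, and DCLRE1A a nuclease of crosslink repair. The other genes that fell were PARG (-0.24), XRCC6 (-0.14), XRCC5 (-0.27), PARP1 (-0.12), ERCC1 (-0.29) and POLQ (-0.23), with adjusted p of 0.000724 to 0.0307 in edgeR. All 21, picked on the average over the 3 clones, had the same sign in each clone. Of the 7 genes grouped under single-strand break repair, APEX2 and APLF thus rose. XRCC1, LIG3, POLB, APTX and APEX1 again did not pass, with log2 changes of 0.10, 0.05, 0.09, -0.10 and -0.02. CHEK2 had 0.01 (95% interval -0.12 to 0.13) and WEE1, the kinase that holds cells before mitosis, -0.14 (-0.25 to -0.03; adjusted p = 0.0719, edgeR).

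Within the prefixes L01, L02 and L03, 3, 6 and 3 genes passed and all 63 values kept their sign, and with library totals 12 genes were higher and 5 lower. Without the 14 libraries of low gene detection PARP1 (adjusted p = 0.108, edgeR), PARP2 (0.051), APLF (0.37), ERCC1 (0.265), SPRTN (0.122), DCLRE1A (0.246), DCLRE1C (0.07) and RNF168 (0.241) did not pass, with log2 changes of -0.09, 0.16, 0.21, -0.14, 0.17, 0.14, 0.27 and 0.12 in that order. APLF passed in 48, SPRTN in 50, DCLRE1A in 49 and POLQ in 51 of 60 fits that left out a library (adjusted p up to 0.0906, 0.12, 0.0974 and 0.105), and POLQ did not pass against untreated libraries (log2 -0.17, 0.112).

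Set against topotecan alone, the combination differed in 3 of 38 genes (7.89%), beside 6.71% of all tested genes (3.31% higher and 3.4% lower). Counting well expressed genes alone, 5.56% of 36 passed, below the 11.7% of 9332. ERCC1 (ENSG00000012061, chromosome 19, 45407333 to 45478828), the partner of the ERCC4 nuclease, fell. It had 24.97 to 55.2 CPM (median 38.7) in the combination and 39.1 to 72.5 CPM (median 48.7) with topotecan alone, and 7 combination libraries lay below every topotecan library. The means were 44.8 ± 7.57 CPM in the combination and 61.7 ± 11.1 CPM with topotecan in C6, 37.4 ± 1.72 and 43.2 ± 3.74 CPM in F7, and 40.5 ± 12.4 and 49.9 ± 2.93 CPM in G6. Its log2 change was -0.32 ± 0.09 (adjusted p = 0.0116, edgeR). Of the exon bases of ERCC1, 28.6% overlap genes on the opposite strand, and the strand setting of the counting is not given in the sources used here.

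DCLRE1C had 9.46 to 17.4 CPM (median 13.1) in the combination and 8.32 to 12.7 CPM (median 10.2) with topotecan, and 8 combination libraries lay above every topotecan library. The means were 13.8 ± 2.58 CPM in the combination and 9.87 ± 1.60 CPM with topotecan in C6, 12.9 ± 2.81 and 10.1 ± 1.63 CPM in F7, and 13.96 ± 2.29 and 10.9 ± 1.38 CPM in G6. Its log2 change was 0.41 ± 0.11 (adjusted p = 0.0155, edgeR). CHEK2 (ENSG00000183765, chromosome 22, 28687743 to 28742422) had 33.2 to 44.1 CPM (median 37.6) in the combination and 27.3 to 37.5 CPM (median 33.1) with topotecan, without overlap within each clone. It averaged 37.7 ± 4.35 CPM in the combination and 29.6 ± 3.25 CPM with topotecan in C6, 39.5 ± 0.84 and 35.7 ± 1.37 CPM in F7, and 35.1 ± 2.69 and 31.1 ± 2.45 CPM in G6. Its log2 change was 0.22 ± 0.06 (adjusted p = 0.0238, edgeR). Without the 14 libraries of low gene detection ERCC1 (log2 -0.22, adjusted p = 0.122, edgeR) and DCLRE1C (0.27, 0.169) did not pass. CHEK2 was lost without the C6 topotecan replicate 2 or 3, the C6 combination replicate 1 or the G6 combination replicate 3 (adjusted p up to 0.0702, edgeR), and no gene passed within a prefix. None of the 3 passed without clone C6 or without clone F7, and ERCC1 alone of them passed without G6; with library totals 4 genes were higher and 1 lower.

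Set against OL9-119 alone, the combination differed in 10 of 38 genes (26.3%), 6 higher and 4 lower, against 12.7% of all tested genes, 4.99% higher and 7.73% lower. Counting well expressed genes alone, the shares were 27.8% of 36 and 20.4% of 9332. APEX2 had 41.9 to 57.8 CPM (median 44.99) in the combination and 27.9 to 44.9 CPM (median 36.7) with OL9-119, and 6 combination libraries lay above every OL9-119 library. Its combination means were 47.2 ± 7.13, 43.98 ± 1.42 and 48.8 ± 0.82 CPM in C6, F7 and G6, against 38.7 ± 7.44, 35.998 ± 2.29 and 36.5 ± 2.73 CPM with OL9-119, and the log2 change was 0.33 ± 0.06 (adjusted p = 0.000101, edgeR). CLSPN had 85.8 to 178 CPM (median 113) in the combination and 73.2 to 140 CPM (median 86.7) with OL9-119, ranges that overlapped in all but 2 combination libraries. Its combination means were 148 ± 21.7, 97.2 ± 11.8 and 117 ± 14.6 CPM in C6, F7 and G6, against 114 ± 27.8, 81.6 ± 5.63 and 94.8 ± 15.2 CPM with OL9-119, and the log2 change was 0.31 ± 0.07 (adjusted p = 0.000753, edgeR). TIPIN (0.35), SPRTN (0.29), PARP2 (0.21) and DCLRE1B (0.17) also rose, with adjusted p of 0.00298 to 0.0328 in edgeR. Without the 14 libraries of low gene detection PARP2 (log2 0.10, adjusted p = 0.379, edgeR) did not pass, nor did MDC1 (-0.12, 0.109).

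PARG had 63.7 to 94.5 CPM (median 85.1) in the combination and 83.2 to 118 CPM (median 98.8) with OL9-119, and 5 combination libraries lay below every OL9-119 library. Its combination means were 91.3 ± 3.14, 86.3 ± 4.74 and 72.5 ± 6.77 CPM in C6, F7 and G6, against 103.7 ± 12.5, 102.2 ± 4.21 and 91.3 ± 7.56 CPM with OL9-119, and the log2 change was -0.25 ± 0.06 (adjusted p = 0.000564, edgeR). PRKDC, at 417 to 688 CPM in the combination and 472 to 957 CPM with OL9-119, overlapped in all but 3 combination libraries. Its OL9-119 means were 805 ± 112, 533 ± 41.4 and 563 ± 42.6 CPM in C6, F7 and G6, and its log2 change was -0.24 ± 0.05 (adjusted p = 0.000719, edgeR). XRCC4, at 8.32 to 18.0 CPM in the combination and 12.9 to 34.5 CPM with OL9-119, had OL9-119 means of 16.6 ± 3.32, 19.6 ± 1.22 and 22.6 ± 8.47 CPM in C6, F7 and G6. For XRCC4, 4 combination libraries lay below every OL9-119 library, and the log2 change was -0.48 ± 0.12 (adjusted p = 0.00196, edgeR). MDC1 also fell (log2 -0.12 ± 0.04, adjusted p = 0.0281, edgeR). APEX2, PRKDC and CLSPN passed under every alternative outside the prefixes, where 2, 2 and 1 genes passed. DCLRE1B passed in 41 and MDC1 in 54 of 60 fits that left out a library (adjusted p up to 0.129 and 0.0822, edgeR), and with library totals or RLE factors 8 genes were higher and 3 lower.

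The interaction asks whether the combination departs from the sum of both log2 changes. No gene of the 38 passed in edgeR, beside 0.0263% of all genes (0.00527% higher and 0.0211% lower), and 1 (ERCC1, log2 -0.25, 95% interval -0.49 to -0.02, unadjusted p = 0.0414, adjusted p = 0.74, edgeR) had an unadjusted p under 0.05. DESeq2 also passed 0. So genes that passed in the combination and not with topotecan alone, such as PARP2, TIPIN and CHEK1, were not shown to depart from that sum. PARP2 had an interaction of 0.08 (-0.08 to 0.24), TIPIN 0.11 (-0.14 to 0.35) and CHEK1 0.07 (-0.12 to 0.27), on the log2 scale with 95% intervals.

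DMSO against no treatment changed 0 of 38 genes in edgeR, with 0 at an unadjusted p under 0.05 and 0 in DESeq2, beside 0.0158% of all genes. The log2 changes ran from -0.08 to 0.15. The dependence of a treatment's change on the clone was also tested. It passed for 0 of 38 genes with topotecan, OL9-119 and the combination in edgeR and in DESeq2, beside 0.137%, 0.0263% and 0.169% of all genes, with 2, 0 and 0 genes at an unadjusted p under 0.05.

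The clones also differed from each other. In DMSO, 18 of 38 genes differed between C6 and F7 (47.4%, against 39.5% of all genes; 14 higher and 4 lower in C6, beside 20.4% and 19.1%). Between C6 and G6 11 differed (28.9%, against 24.4%; 8 higher and 3 lower, beside 11.6% and 12.8%). Between F7 and G6 7 differed (18.4%, against 17%; 2 higher and 5 lower in F7, beside 6.85% and 10.2%). Counting well expressed genes alone, 50% of 36 differed for C6 against F7, beside 51.1% of 9332, then 27.8% beside 31.7% for C6 against G6 and 19.4% beside 24.7% for F7 against G6, so the shares were near or below the background. In untreated libraries 15 genes differed for C6 minus F7, 9 higher and 6 lower, and 11 of the 18 DMSO calls recurred. For C6 minus G6 7 of the 11 recurred and for F7 minus G6 4 of the 7. Over all 18985 genes 6196, 4248 and 3153 passed there, in the same order. In DMSO, all 3 DNA-PK subunit genes (PRKDC, XRCC5 and XRCC6) were higher in C6 than in either of the other clones, and CHEK1 was lower. With library totals the C6 minus F7 changes shift by -0.14, and 7 genes were higher and 7 lower; for F7 minus G6 4 were higher and 4 lower, and 3 and 4 with RLE factors.

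XRCC6 had 830, 774, 831 and 915 CPM in the C6 DMSO libraries, 540, 489, 551 and 527 in F7, and 703, 660, 692 and 598 CPM in G6, with no overlap between clones. The log2 differences were 0.67 for C6 minus F7 (adjusted p = 2.31e-14), 0.34 for C6 minus G6 (6.85e-06) and -0.33 for F7 minus G6 (1.61e-05, all edgeR). In untreated libraries they were 0.57, 0.40 and -0.17. PRKDC had 802, 881, 754 and 793 CPM in C6, 549, 593, 561 and 578 in F7, and 550, 635, 671 and 512 CPM in G6, so that every C6 library lay above the rest. Its differences were 0.50 for C6 minus F7 (adjusted p = 1.47e-05) and 0.45 for C6 minus G6 (0.000172, both edgeR), and 0.44 and 0.42 in untreated libraries. XRCC5 had 659, 750, 521 and 662 CPM in C6, 445, 394, 424 and 451 in F7, and 575, 507, 536 and 403 CPM in G6, with C6 above F7 and overlapping G6. XRCC5 differed by 0.60 for C6 minus F7 (adjusted p = 3.28e-05, edgeR) and 0.36 for C6 minus G6 (0.0168), and the second was lost without the C6 DMSO replicate 2 or the G6 DMSO replicate 4 (up to 0.131) and in untreated libraries (log2 0.23, adjusted p = 0.146).

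CHEK1 (ENSG00000149554, chromosome 11, 125625136 to 125676255) had 53.8, 40.0, 38.1 and 47.4 CPM in C6, 77.3, 64.6, 69.9 and 74.0 in F7, and 87.8, 79.2, 83.2 and 62.3 CPM in G6, with C6 below the others without overlap. The differences were -0.67 for C6 minus F7 (adjusted p = 1.19e-05) and -0.80 for C6 minus G6 (9.82e-07, both edgeR), and -0.87 and -0.82 in untreated libraries. WEE1 (ENSG00000166483, chromosome 11, 9573681 to 9593457) had 114, 104.4, 104.4 and 110 CPM in C6, 116, 99.5, 106 and 114 in F7, and 206, 193, 184 and 155 CPM in G6. G6 thus stood above both others, by -0.77 for C6 minus G6 (adjusted p = 1.45e-08) and -0.77 for F7 minus G6 (3.24e-08, both edgeR), and by -0.79 and -0.68 in untreated libraries. TIMELESS was higher in C6 DMSO libraries, at 149, 137, 171 and 170 CPM against 115, 115, 121.2 and 103.1 CPM in F7, a difference of 0.47 (adjusted p = 4.24e-05, edgeR).

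**Figure D4:**
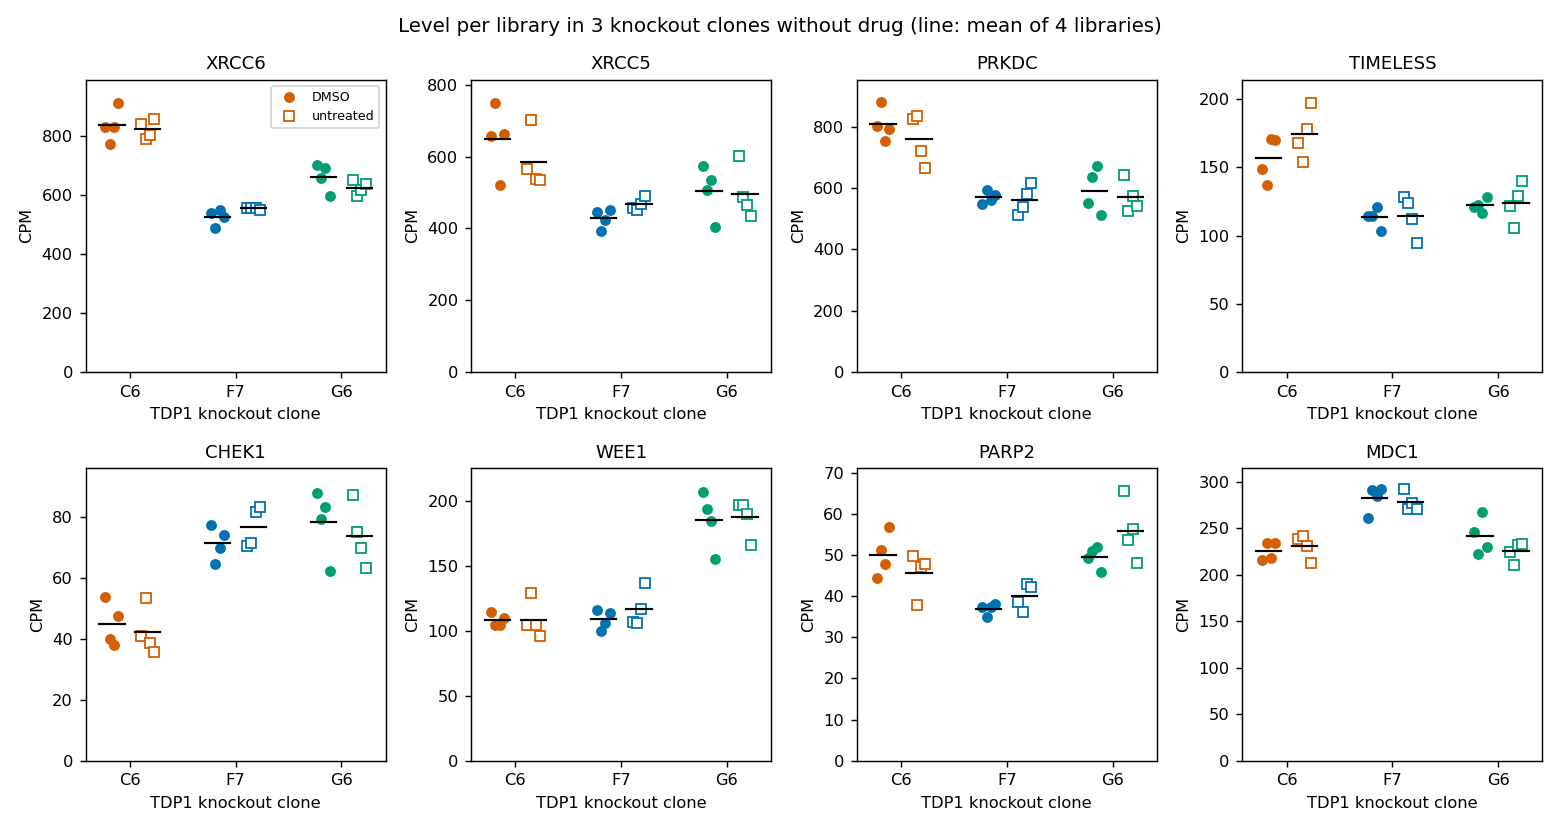
CPM of 8 genes (panels) in the DMSO (filled) and untreated (open) libraries of clones C6, F7 and G6, with the mean of 4 libraries as a line. XRCC6 and PRKDC are highest in C6 and WEE1 is highest in G6, with and without DMSO.

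LIG3 had 54.4, 52.5, 58.4 and 56.3 CPM in C6 and 31.8, 43.5, 41.3 and 42.5 CPM in G6, without overlap, a difference of 0.48 (adjusted p = 0.000155, edgeR). PARP2 had 37.4, 34.8, 37.4 and 38.2 CPM in F7 and 49.2, 50.9, 51.98 and 45.8 CPM in G6, again without overlap. Between F7 and G6, PARP2 differed by -0.42 (adjusted p = 0.00213), APEX1 by -0.37 (0.00158) and MDC1 by 0.22 (0.0166, all edgeR). APEX1 had 81.0, 82.3, 84.0 and 87.3 in F7, and 133, 102.01, 98.6 and 97.97 CPM in G6, and did not pass without the G6 DMSO replicate 1 (adjusted p = 0.0675, edgeR) or in untreated libraries (log2 -0.10, adjusted p = 0.527). MDC1 did not pass without the F7 DMSO replicate 4 or the G6 DMSO replicate 2 or 4 (adjusted p up to 0.0919, edgeR), and in untreated libraries differed by 0.30. Of the 14 libraries of low gene detection 10 were C6 and none F7. Without them XRCC6 differed by 0.73, PRKDC by 0.44 and CHEK1 by -0.74 for C6 minus F7, as log2 changes.

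A list of 40 other break repair and checkpoint genes, all tested, gives the surroundings. With topotecan 5 of them rose and 5 fell (25%, against 15.3% of all tested genes and 25.2% of well expressed genes). Among those that rose were CDC25A, a phosphatase that drives S phase entry (log2 0.31), the flap nuclease FEN1 (0.23) and the replicative ligase LIG1 (0.24). Those that fell with the smallest p were BABAM2, a subunit of BRCA1-A (-0.59), the mitotic phosphatase CDC25C (-0.32), the ubiquitin-conjugating enzyme UBE2N that works with RNF8 and RNF168 (-0.23) and RHNO1 (-0.17), a partner of the ATR-activating clamp. With OL9-119 UIMC1 (0.25), EME1 (0.30) and ABRAXAS1 (0.38) rose, and FEN1 (-0.29), UBE2N (-0.30) and SHLD3 (-0.52) fell (15%, against 9.42% of all and 15.9% of well expressed genes). In the combination 8 rose and 3 fell (27.5%, against 21.2% and 33.9%), with RAD1 (0.32), ABRAXAS1 (0.50) and RBBP8 (0.32) among the higher and UBE2N (-0.46), BABAM2 (-0.50) and CDC25C (-0.30) the lower.

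Against topotecan alone the combination had EME1 (0.36), RAD17 (0.35), RNF169 (0.22) and PAXIP1 (0.21) higher and FEN1 (-0.26), CDC25A (-0.19) and UBE2N (-0.23) lower, 8 of 40 genes in all (20%, against 6.71% of all and 11.7% of well expressed genes). FEN1 thus lay lower in the groups with OL9-119 in both comparisons, whereas in the combination against OL9-119 alone it was higher (0.26), with CDC25A (0.21) and RAD1 (0.29), and with CDC25C (-0.40), BABAM2 (-0.46), UIMC1 (-0.18) and RAD50 (-0.47) lower, 8 of 40 again (20%, against 12.7% and 20.4%). These log2 changes had adjusted p of 3.23e-09 to 0.038 in edgeR.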

How the data were processed

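RNA was extracted with Trizol and made into poly(A)-selected, directional libraries, per the labels' protocols. Reads were processed by the authors with FastQC 0.11.9, STAR 2.7.8 and Picard 2.26.6 on hg38, per the submitters' processing notes, and whole-number counts per gene were deposited. Neither labels nor notes name the counting tool, its annotation or its strand option. Names came from a current list of gene names, which held 57754 of 58395 IDs, and otherwise from GENCODE 29. Coordinates came from GENCODE 29, which held 58275 IDs.

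Counts were filtered with filterByExpr, scaled with TMM and tested with the quasi-likelihood F test of edgeR 4.0.16 (R 4.3.3) in a model of 15 groups of 4 libraries. Treatment contrasts averaged the 3 clones, and p-values were adjusted by Benjamini-Hochberg over 18985 genes. CPM was computed here from the deposited counts and TMM factors. The script was tested on simulated data. The members and lists were chosen with earlier results of these data known. Every member that passed in a treatment comparison is named, the 5 with the smallest p in each with their CPM, and for each clone pair the 5 with the smallest p are named. Replicates are labelled biological. Alternatives were RLE or no scaling, no filter, DESeq2 1.42.0, a replicate block, the libraries compared alone, the library name prefix, libraries of low gene detection left out, and each clone and library left out. Untreated libraries in place of DMSO were added after seeing the data. Of the other genes of the pathway up to 4 per direction with the smallest p are named, and 1 is not reported here.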

Additional observations from a re-analysis of the deposited data

Results flagged for a closer look

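APEX1, the main apurinic endonuclease, stood apart in the G6 DMSO replicate 1, at 132.7 CPM, against 102.01, 98.6 and 97.97 CPM in the other G6 DMSO libraries. Of 30 sets of 4 libraries examined for a library far from the rest it was the only such value, and chance gives about 5% of sets. Without that library the F7 minus G6 difference of APEX1 had an adjusted p of 0.0675 in edgeR.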

How the results depend on the processing

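Counts are members called at an adjusted p under 0.05 in edgeR, of 38. Leaving out each library in turn gave 12 to 15 for topotecan, 2 to 5 for OL9-119, 18 to 21 for the combination, 2 to 7 for the combination against topotecan, 9 to 13 against OL9-119, 13 to 18 for C6 minus F7, 7 to 11 for C6 minus G6 and 4 to 9 for F7 minus G6. It gave 0 to 0 for DMSO against no treatment, the interaction and the clone dependences. Within the prefixes L01, L02 and L03 the counts were 4, 3 and 3 for topotecan, 0, 0 and 0 for OL9-119, 3, 6 and 3 for the combination, 0, 0 and 0 for the combination against topotecan, and 2, 2 and 1 against OL9-119, where fewer libraries enter each fit. For OL9-119 the count was 1 without the filter and 8 without the libraries of low gene detection. It was 1, 1 and 0 without clone C6, F7 and G6, and 2 in the libraries compared alone. Over all genes, 1343 of 41553 passed without the filter and 2812 of 20654 without the low-detection libraries, against 1788 of 18985 as reported. Without C6, F7 and G6 these were 1131 of 18568, 841 of 18074 and 1067 of 18392. In the libraries compared alone 1355 of 17845 passed. The combination had 13 without F7, where 2474 of 18074 genes passed, against 4034 of 18985 as reported. Against topotecan it had 5 with library totals, 5 in the libraries compared alone, 5 in DESeq2, 1 without the libraries of low gene detection, and 0, 0 and 1 without C6, F7 and G6. In that comparison 1521 of 18985 genes passed with library totals, 1676 of 17446 in the libraries compared alone and 1566 of 18985 in DESeq2. Without C6, F7 and G6 these were 678 of 18568, 271 of 18074 and 1037 of 18392, against 1274 of 18985 as reported. Against OL9-119 the combination had 5 without G6, where 1490 of 18392 genes passed, against 2415 of 18985 as reported. C6 minus G6 had 7 in the libraries compared alone, and F7 minus G6 had 4 without the filter. There 2340 of 15084 and 2807 of 41553 genes passed, against 4623 and 3232 of 18985 as reported. Topotecan without the filter gave 7 higher and 5 lower. RNF8, a ubiquitin ligase at breaks, changed sign for F7 minus G6, with a log2 difference of 0.12 in untreated libraries (adjusted p = 0.44, edgeR), against -0.25 in DMSO libraries. The causes were not tested.

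With a replicate block of clone and number the counts were 17 for topotecan, 6 for OL9-119, 22 for the combination, 7 against topotecan, 16 against OL9-119 and 0 for DMSO against no treatment. Calls over all 18985 genes also rose, to 3812, 2580, 4923, 2409, 3264 and 10 in that order. As reported these were 2907, 1788, 4034, 1274, 2415 and 3. With the number as a block the counts of members were 18, 11 and 8 for the clone pairs, beside 7748, 4822 and 3495 of all genes. As reported those were 7499, 4623 and 3232. Over 6 comparisons, same-numbered libraries of a clone had correlated deviations of -0.419 to 0.798, over 0.1 in 4 to 6 of 12 pairs, and 4 to 7 of 12 correlated best with their own number. Some pairs correlated in all 6 comparisons, G6 number 4 (0.594 to 0.798), C6 number 3 (0.559 to 0.732) and G6 number 1 (0.413 to 0.537), while others did not, so the rule that every pair exceed 0.1 was not met.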
